A study of Mus musculus with 2 samples.

Results

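The cells described here are splenic regulatory T cells (Tregs) with transcripts of the effector markers Ccl5, Klrg1, Fgl2, Lilrb4a, Lilr4b and Prdm1. A cell was selected when at least 2 of these 6 genes each had at least 1 unique molecular identifier (UMI, the tag that counts 1 captured RNA molecule) and when Ccr2, Il1rl1 and Sostdc1 had none. The choice was made among cells with at least 500 detected genes, at most 10% mitochondrial UMIs and no UMI of the B cell gene Cd79a. Of 12953 such cells, 522 were selected: 52 of 6051 in the CD25WT library and 470 of 6902 in the CD25KO library. They are called marker-positive Tregs below, and the other 12431 filtered cells are called the remaining cells. Because the 9 genes of the selection decided membership, their own levels are given as a description and support nothing.

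The CD25WT library held cells from CD25WT/WT mice and the CD25KO library cells from CD25FL/FL mice, whose Il2ra gene, encoding the interleukin-2 (IL-2) receptor alpha chain CD25, is floxed. Both genotypes carried tdTomato+/+ and Foxp3eGFPCretERT2+/+, an allele through which Foxp3-expressing cells make GFP and a tamoxifen-dependent Cre recombinase. Both received tamoxifen at 2 mg/kg by intraperitoneal injection for 5 days, so the controls share the drug and the Cre. Spleens were taken 10 days after induction, and the cells of 2 spleens were pooled for each library. Live cells positive for CD4, GFP and tdTomato were sorted, with a further gate on low CD25 for the CD25KO library alone. Each group was thus 1 library without a replicate. No difference was tested, and every interval in brackets is a 95% interval for counting error only, exact Clopper-Pearson for shares and exact conditional Poisson for ratios. Genotype, gate and library cannot be told apart.

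Effector Tregs leave the resting, lymph node-homing state, lose the homing receptor CCR7, and take up adhesion molecules, chemokine receptors and suppressor molecules. Blimp-1, the repressor encoded by Prdm1, marks their late stage and limits genes such as Tcf7, Id3 and Bcl6. KLRG1 is an inhibitory receptor of differentiated lymphocytes, CCL5 is a chemokine that draws leukocytes, FGL2 is a secreted suppressor protein, and Lilrb4a and Lilr4b encode leukocyte immunoglobulin-like receptors. IL-2 acts in Tregs through STAT5, whose targets include Cish, Socs2 and Bcl2.

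Upstream sequences of 3 genes are shown because these genes are read together in single cells and carry a motif within the stretch searched: 2 of the selecting markers and Nkg7, a gene that the selection did not use. Each is the 250 bases before the RefSeq transcription start (GRCm38.p6), printed 5' to 3' on the gene's strand, with the motif in capitals. The Fgl2 stretch is chr5:21372423-21372672 on the plus strand. The Prdm1 stretch is chr10:44458749-44458998 on the minus strand and lies inside the longer gene model of the GENCODE annotation. The Nkg7 stretch is chr7:43436888-43437137 on the plus strand. The GENCODE genes begin at 21372642 (Fgl2) and 43437073 (Nkg7), so both stretches run into them and their marked motifs lie inside.
Fgl2: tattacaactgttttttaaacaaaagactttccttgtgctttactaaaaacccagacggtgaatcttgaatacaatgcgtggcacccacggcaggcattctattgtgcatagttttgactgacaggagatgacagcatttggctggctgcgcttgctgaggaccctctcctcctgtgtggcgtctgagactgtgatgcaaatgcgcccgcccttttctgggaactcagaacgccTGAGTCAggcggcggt
Prdm1: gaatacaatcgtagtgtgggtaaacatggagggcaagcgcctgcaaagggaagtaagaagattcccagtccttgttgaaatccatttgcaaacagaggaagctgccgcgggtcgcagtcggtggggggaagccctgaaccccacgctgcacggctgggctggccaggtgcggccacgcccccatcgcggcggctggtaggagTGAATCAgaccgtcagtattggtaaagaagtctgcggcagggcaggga
Nkg7: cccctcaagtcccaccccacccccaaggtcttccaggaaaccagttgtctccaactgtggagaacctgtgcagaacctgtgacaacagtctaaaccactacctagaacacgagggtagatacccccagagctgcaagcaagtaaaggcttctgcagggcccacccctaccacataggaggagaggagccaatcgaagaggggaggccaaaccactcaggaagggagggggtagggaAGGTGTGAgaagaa
The capitals in Fgl2 and Prdm1 are the AP-1 motif TGANTCA, beginning at base -16 and base -48 from the start, and those in Nkg7 are the T-box motif AGGTGTGA at base -14. Both motifs and the Blimp-1 motif GAAAGTG were searched on both strands, and no match overlapped another. Of 32851 promoter stretches of this length, 6.75% held the AP-1 motif, 1.12% the T-box motif and 4.01% the Blimp-1 motif. Stretches were found for 3 of the 6 markers, of which 2 held the AP-1 motif, and for 8 of the 12 genes named below as higher in marker-positive Tregs, of which 1 held AP-1 (Agpat4) and 1 T-box (Nkg7). These are matches of letters and not measured binding sites.

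The matrices held 6620 CD25WT and 7530 CD25KO barcodes, and 107 barcodes occurred in both, 0 of them in a marker-positive CD25WT cell and 3 in CD25KO. The median depth was 4697.5 UMIs in CD25WT and 4239 UMIs in CD25KO marker-positive Tregs, against 5238 and 4143.5 in the remaining cells. Their UMIs summed to 350253 in CD25WT and 2580500 in CD25KO. The smaller sum makes 3 counts worth 8.57 counts per 1000000 UMIs (CPM) in CD25WT, against 1.16 CPM in CD25KO. Ribosomal protein genes took 30.1% and 26.3% of UMIs in marker-positive Tregs and 39.4% and 31.4% in the remaining cells. A cell could more easily meet the selection the more UMIs it had, so shares are also given with each cell thinned to 2000 UMIs.

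Marker-positive Tregs made up 0.859% (0.642 to 1.13) of CD25WT and 6.81% (6.23 to 7.43) of CD25KO cells, a 7.92-fold (5.94 to 10.8) larger share in CD25KO. After thinning, 22 of 5963 CD25WT cells (0.369%) and 286 of 6530 CD25KO cells (4.38%) met the rule, an 11.9-fold (7.69 to 19.2) larger share, with 88 and 372 shallower cells left out. Since the CD25KO sort alone took CD25-low cells, the CD25WT share was also read among cells with no Il2ra UMI, where it was 1.17%. Such cells were 3947 of the 6051 CD25WT cells, and a missing UMI is not a measure of surface CD25. The effect of the sort gate on the shares was therefore not tested. Requiring at least 3 of the 6 markers left 0.149% of CD25WT and 2.55% of CD25KO cells. Under each of these counts the CD25KO share was the larger one.

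Within the marker-positive Tregs, 43 CD25WT cells carried 2 markers, 6 carried 3 and 3 carried 4. In CD25KO, 294 cells carried 2 markers, 121 carried 3, 40 carried 4 and 15 carried 5, and no cell carried all 6. Just outside the rule were the cells with 1 marker, 354 in CD25WT and 903 in CD25KO, and those with at least 2 markers but a UMI of Ccr2, Il1rl1 or Sostdc1, 12 and 234. The step from outside to inside was gradual in CD25KO for Nkg7 and Tcf7, 2 genes the selection did not use. Both are among the genes that differ most between marker-positive and remaining CD25KO cells. Other genes, and these steps in CD25WT, are not given here. In CD25KO, Nkg7 stood at 52.3 CPM in cells with no marker, 162 with 1, 339 with 2 and 533 with at least 3. Tcf7 stood at 295, 215, 113 and 45.8 CPM over the same steps.

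**Figure D1:**
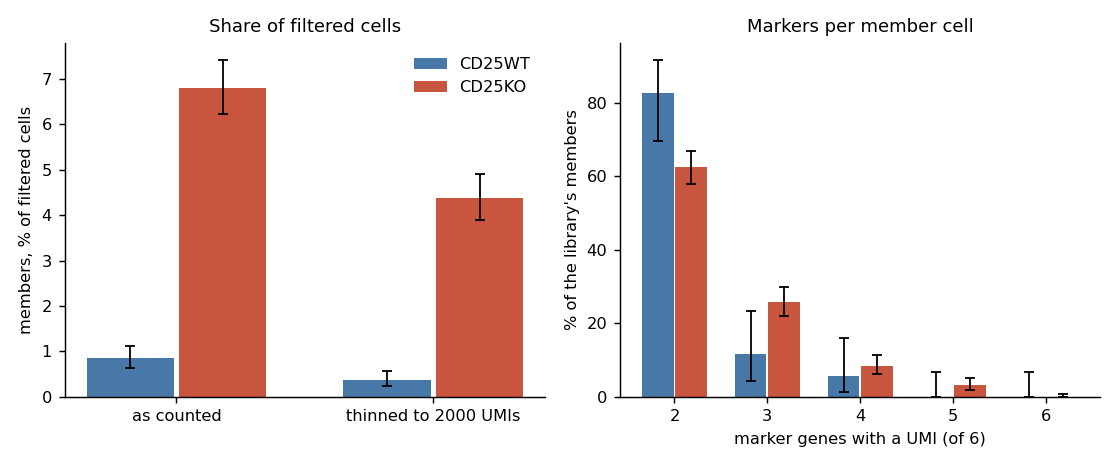
Left, marker-positive Tregs as a percentage of filtered cells in each library, as counted and with every cell thinned to 2000 UMIs; right, the percentage of each library's marker-positive Tregs with 2 to 6 detected markers. Bars are 1 library each and lines are exact 95% intervals for counting error; the CD25KO share is 6.81% and the CD25WT share 0.859% as counted.

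The markers were detected in different proportions in the 2 libraries. Ccl5 had a UMI in 78.8% of the CD25WT and 59.4% of the CD25KO marker-positive Tregs, and in 2.28% and 8.07% of the remaining cells. Fgl2 was detected in 38.5% and 47.2%, Lilrb4a in 36.5% and 55.3%, Prdm1 in 59.6% and 42.3%, and Lilr4b in 7.69% and 27.9% of the CD25WT and CD25KO marker-positive Tregs. Klrg1 had a UMI in 1 of the 52 CD25WT cells and in 95 of the 470 CD25KO cells (20.2%). The CD25WT cells were thus chosen mainly by Ccl5 and Prdm1, and hardly by Klrg1. The summed levels in CD25WT and CD25KO marker-positive Tregs were 1008 and 1598 CPM for Ccl5, 137 and 109 CPM for Prdm1, and 2.86 and 66.7 CPM for Klrg1, so the order of the Ccl5 shares is not that of its levels. The most frequent combination was Ccl5 with Prdm1 in CD25WT (15 cells, 28.8%) and Ccl5 with Fgl2 in CD25KO (47 cells, 10.0%).

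To look for free RNA, cells that carried Cd79a and no Cd3 gene were read. There were 17 in CD25WT and 20 in CD25KO, with median depths of 4280 and 3761.5 UMIs. They held none of the 6 markers except Lilrb4a in 1 CD25KO cell (5.00%). So few cells cannot decide whether free RNA carried the markers at the shares of the remaining cells, such as 2.28% and 8.07% for Ccl5. Lilrb4a and Lilr4b lie side by side on chromosome 10, at 51490956 to 51496611 and 51480632 to 51486703. Of the 91-base stretches in the last 500 bases of their transcripts, 14.7% and 16.9% were identical in the other gene, so their reads may be shared. Counting both as 1 marker left 0.859% of CD25WT and 6.53% of CD25KO cells.

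Among genes outside the selection, Cd3e and Ikzf2 were detected in nearly all marker-positive Tregs and Foxp3 seldom. Cd3e had a UMI in all 52 CD25WT and in 97.4% of CD25KO marker-positive Tregs, and Ikzf2, which encodes the Treg-associated factor Helios, in 98.1% and 98.9%, against 68.2% and 84.9% of the remaining cells. Foxp3 itself had a UMI in 17.3% and 16.8%, against 15.9% and 9.48% of the remaining cells. With every cell thinned to 2000 UMIs, Ikzf2 was detected in 90.9% and 97.2% of marker-positive Tregs against 52.3% and 77.2% of the remaining cells, and Foxp3 in 18.2% (4 cells) and 8.39% against 6.68% and 4.95%. The summed level of Foxp3 was 40.0 CPM in CD25WT and 34.9 CPM in CD25KO marker-positive Tregs, and 34.1 and 20.7 CPM in the remaining cells. Of the 15 genes of the Treg identity list, 8 lay 1.5-fold or more above the remaining cells and 1 below in CD25KO (median log2 0.63), where 5.51% of all genes lay above and 2.42% below. In CD25WT 6 lay above and 2 below (median 0.46), against 25.4% and 7.7% of all genes. Gpr83, a Treg-associated receptor, went the other way, at 5.04 against 18.8 CPM in CD25KO and 5.71 against 50.3 CPM in CD25WT. Among CD25KO cells with a Foxp3 UMI, 11.5% were marker-positive, and among CD25WT cells with one, 0.935%.

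Transcripts on the lists of other lineages were present, and some defining markers were at 0. Ncr1, Lyz2, Ms4a1 and Pax5 had no UMI in either library's marker-positive Tregs, and Cd8a was found in 1 CD25WT and 2 CD25KO cells. Cd8b1 was found in 5.77% and 6.81%, against 5.27% and 5.13% of the remaining cells. The NK list held 3 UMIs over 2 of its 7 genes in CD25WT and 176 UMIs over 6 genes in CD25KO, 68.2 CPM against 16.8 CPM in the remaining CD25KO cells, most of them Gzma. Of the 15 myeloid genes, 3 and 13 had a UMI, at 168 and 265 CPM against 144 and 169 CPM, and of the 10 B cell genes 4 and 7, at 385 and 694 CPM against 304 and 553 CPM. The myeloid list is led by Cst3 and the B cell list by Ighm and Cd74. At least 2 UMIs of the myeloid list were in 30.8% and 32.6% of CD25WT and CD25KO marker-positive Tregs against 14.8% and 19.2% of the remaining cells, and of the B cell list in 57.7% and 55.3% against 36.0% and 49.1%. The plasma cell list stood at 2.86 and 75.6 CPM against 7.77 and 34.2 CPM. In CD25KO the NK, myeloid, B and plasma cell lists were thus all higher in marker-positive Tregs, and how far transcripts of such cells bear on the results was not tested. Most erythroid-list UMIs lay in single cells, although Hbb-bs was detected in 42.3% of CD25WT and 23.2% of CD25KO marker-positive Tregs (35.1% and 21.5% of the remaining cells): 1 CD25WT cell held 99.2% of the 4539 erythroid-list UMIs and 1 CD25KO cell 78.2% of 1073, and the plasma cell list in CD25KO had 56.4% of its 195 UMIs in 1 cell. "Terminal" in the working name was not tested by any measure here, and the word effector rests on the gene lists that follow.

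**Figure D2:**
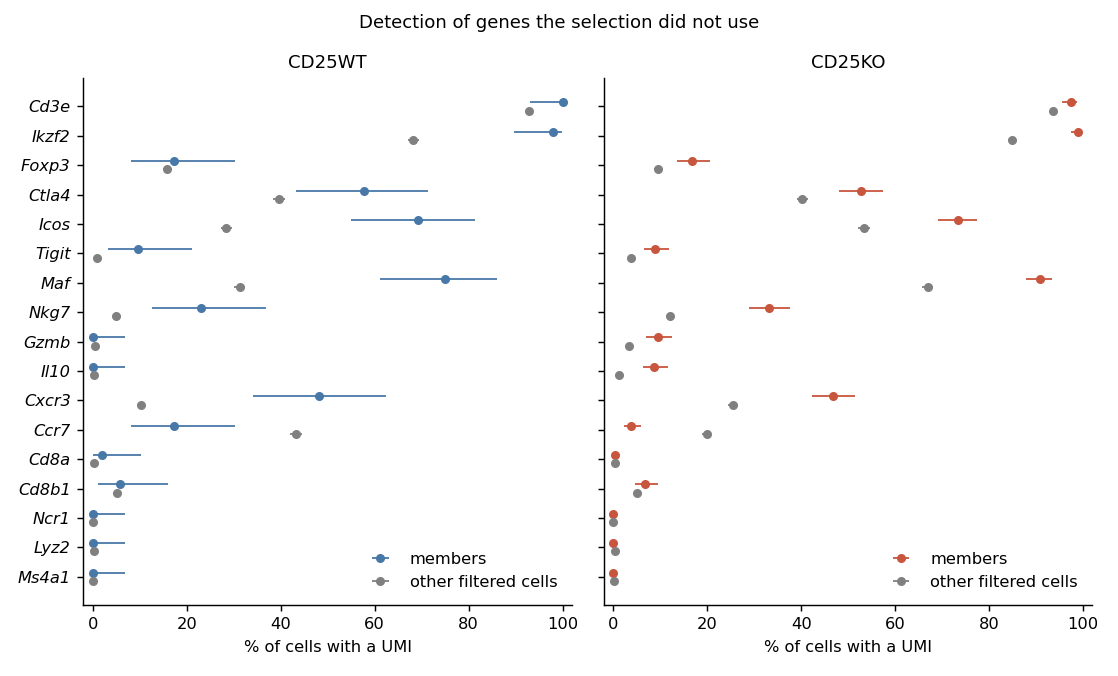
Percentage of cells with at least 1 UMI (horizontal axis) for genes that the selection did not use, in marker-positive Tregs (labelled members, coloured) and the remaining cells (grey) of CD25WT (left) and CD25KO (right), with exact 95% intervals for counting error. Ikzf2 and Cd3e lie near the top of the scale in both libraries, Ccr7 lies lower in marker-positive Tregs, and Ncr1, Lyz2 and Ms4a1 lie at 0.

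Compared with the remaining cells of the same library, CD25KO marker-positive Tregs had more transcripts of 10 of 13 measured suppressor molecules (1.5-fold or more) and fewer of 12 of 14 central and quiescence genes, described with the other lists below. A mean of 10 CPM or more over the 4 sums (marker-positive and remaining cells of both libraries) was reached by 7302 genes, some of which lie below 10 CPM in 1 library. In the CD25KO marker-positive Tregs, 105 of them (1.44%) lay 2-fold or more above the remaining cells and 61 (0.835%) 2-fold or more below. In CD25WT these numbers were 720 (9.86%) and 229 (3.14%), at a depth where a few cells set many values. In simulated data, 508 of 7102 genes with no planted difference passed 2-fold in CD25WT, and 2 of 7102 in CD25KO. In both libraries at once, 69 genes (0.945%) were 2-fold higher and 25 (0.342%) 2-fold lower. The median log2 ratio over all these genes was 0.09 in CD25KO and 0.24 in CD25WT. In CD25KO 5.51% of them were 1.5-fold higher and 2.42% lower, and in CD25WT 25.4% and 7.7%. Each list below is read beside these values.

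Areg, which encodes the epidermal growth factor family ligand amphiregulin, stood at 69.4 CPM against 12 CPM in CD25KO (log2 2.53, 2.26 to 2.78). In CD25WT it stood at 22.8 against 1.90 CPM (log2 3.59, 2.32 to 4.65), from 8 UMIs of which 6 lay in 1 cell. Nkg7, a membrane protein of cytotoxic granules, stood at 413 against 118 CPM in CD25KO (log2 1.81, 1.71 to 1.91) and at 120 against 31.4 CPM in CD25WT (log2 1.93, 1.45 to 2.38). Both genes were thus higher in marker-positive Tregs of either library. Serpina3g, a serine protease inhibitor, stood at 343 against 91 CPM in CD25KO and 206 against 27.5 CPM in CD25WT, with log2 ratios of 1.91 and 2.90. Its close paralog Serpina3f had log2 ratios of 1.77 and 4.60, and reads of the pair may not be told apart.

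Penk, the precursor of the enkephalin peptides, stood at 242 against 78.4 CPM in CD25KO (log2 1.63, 1.5 to 1.75), where 76 cells carried it. In CD25WT it stood at 200 against 21.1 CPM (log2 3.24), but 60.0% of its 70 UMIs lay in 1 cell. Entpd1, which encodes the ATP-hydrolysing ectoenzyme CD39, had log2 ratios of 1.40 (1.06 to 1.74) in CD25KO and 1.93 (1.04 to 2.69) in CD25WT. Il10ra, the ligand-binding chain of the interleukin-10 receptor, had 1.49 (1.19 to 1.78) and 1.34 (0.37 to 2.16), and was the gene of this group with the closest values in the 2 libraries besides Nkg7. Asb2, a subunit of a ubiquitin ligase, had 1.96 and 2.93. The sulfotransferase Chst2 had 1.68 and 2.53, Podnl1 1.52 and 2.32, the acyltransferase Agpat4 1.36 and 1.85, and Neb, which encodes the giant muscle protein nebulin, 2.56 and 2.02. Neb was found in 100 CD25KO marker-positive Tregs (21.3%, against 4.06% of the remaining cells), with no cell holding more than 4.38% of its UMIs.

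The genes lower in marker-positive Tregs of both libraries included receptors, cytoskeletal proteins and signalling genes. Ccr7, the lymph node homing receptor, stood at 14.0 against 66.4 CPM in CD25KO (log2 -2.25, -2.77 to -1.78) and at 37.1 against 138 CPM in CD25WT (log2 -1.89, -2.80 to -1.12). The IL-6 receptor chains were both lower, Il6ra by log2 -1.82 and -1.5 and Il6st by -1.21 and -1.55 in CD25KO and CD25WT. Nsg2 had log2 ratios of -2.85 and -1.95, Igfbp4 -2.46 and -3.37, and Ly6c1, a member of a family of similar genes, -2.81 and -3.47. The largest of the 2 Ly6c1 sums in marker-positive Tregs was 7 UMIs. Actn1 (-1.83 and -2.01), Pdlim1 (-1.46 and -1.98), the phosphoinositide 3-kinase inhibitor Pik3ip1 (-1.24 and -1.52), Ttc28 (-1.17 and -1.63) and the kinase gene Txk (-1.16 and -2.19) were also lower in both.

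**Figure D3:**
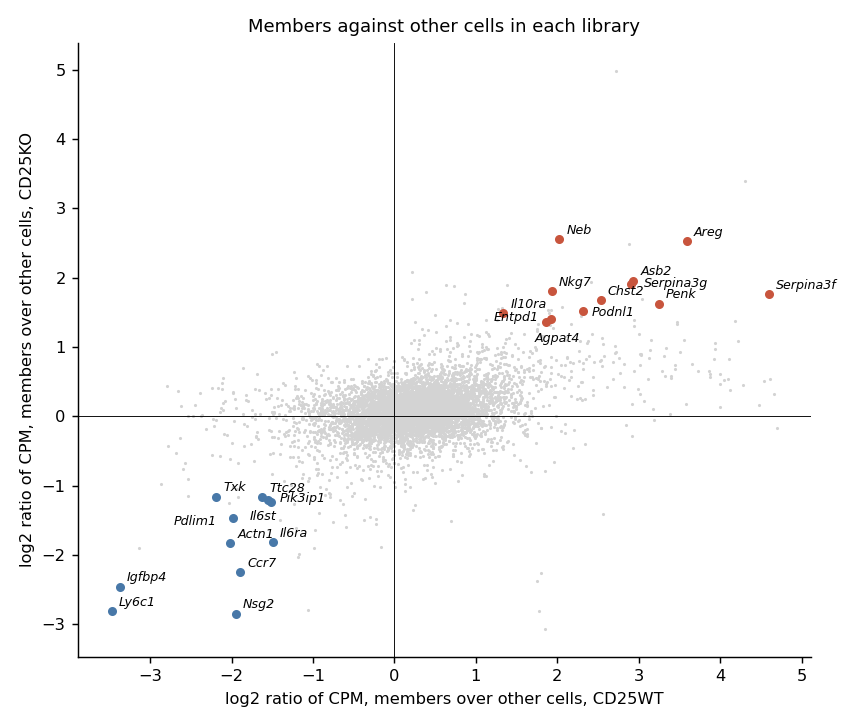
Log2 ratio of summed CPM, marker-positive Tregs over the remaining cells, in CD25WT (horizontal) and CD25KO (vertical). Grey points are genes that averaged 10 CPM or more over the 4 sums and had at least 1 UMI in the marker-positive Tregs of each library; coloured and named points are 12 higher and 11 lower genes with the largest smaller ratio among those averaging 20 CPM or more, with Areg and Serpina3f at the upper right and Ly6c1 and Igfbp4 at the lower left.

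Genes of the effector Treg programme were higher in marker-positive Tregs as a group. Of its 21 genes, 14 lay 1.5-fold or more above in CD25KO and 0 below, where 5.51% of all genes were 1.5-fold higher and 2.42% lower, and the median log2 ratio was 0.79. In CD25WT 13 of 19 were 1.5-fold higher and 0 lower, with 25.4% of all genes higher and 7.7% lower, and the median was 1.02. Il10 and Gzmb had no UMI in the CD25WT marker-positive Tregs, gave no ratio and are not among the 19. The tumour necrosis factor receptors Tnfrsf4 (OX40) and Tnfrsf18 (GITR) had log2 ratios of 1.17 and 1.16 in CD25KO and 1.02 and 1.04 in CD25WT. Icos, a costimulatory receptor, stood at 431 against 285 CPM in CD25KO and 197 against 90.5 CPM in CD25WT. Il10, the suppressive cytokine, stood at 46.9 CPM against 5.17 CPM in CD25KO (log2 3.18, 2.83 to 3.53) and had no UMI in the 52 CD25WT cells, and a limit of 3 counts allows up to 5.77% of these cells to hold one.

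Suppressor molecules had 10 of 13 genes 1.5-fold higher in CD25KO (median log2 1.01) and 10 of 11 in CD25WT (1.65), with 0 lower in either. The CD25WT count and median leave out Il10 and Gzmb, which had no UMI in the marker-positive Tregs there and gave no ratio. Beside Areg, Penk and Entpd1, and Il10 in CD25KO alone, the higher genes held Pdcd1, encoding the inhibitory receptor PD-1, at log2 1.14 and 0.68. Effector transcription factors had 7 of 14 genes 1.5-fold higher in CD25KO (median 0.62) and 10 of 14 in CD25WT (1.25). Zeb2, a transcription factor of terminally differentiated lymphocytes, had log2 ratios of 1.58 and 2.06, Bhlhe40 0.92 and 1.58, and Maf, a regulator of interleukin-10, 0.79 and 1.76. None of the 14 was 1.5-fold lower in either library. For both lists, the share of all genes that were 1.5-fold higher was 5.51% in CD25KO and 25.4% in CD25WT. Of the chemokine list, 3 genes reached the mean of 10 CPM, and Ccl1 had no UMI in CD25WT marker-positive Tregs. Cxcl10, an interferon-induced chemokine, was at log2 0.82 in CD25KO, where 71 cells carried it, and at 2.53 in CD25WT, where 3 cells held 91.2% of its 34 UMIs.

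Among receptors for chemokines, Cxcr3 stood at 158 against 92.6 CPM and 137 against 30.0 CPM. Cxcr6 stood at 136 against 31.9 CPM in CD25KO (log2 2.09), but at 8.57 against 7.4 CPM in CD25WT from 3 UMIs (log2 0.21, -2.08 to 1.77). Over the list, 3 of 7 genes were 1.5-fold higher and 2 lower in CD25KO, with a median of 0.22 that lies near that of all genes. The Th1-type list, which shares Cxcr3 with it, had 5 of 8 and 7 of 8 genes 1.5-fold higher and 0 lower, with medians of 0.83 and 1.5. Over all genes, 5.51% were 1.5-fold higher in CD25KO and 25.4% in CD25WT. Ifngr1, a chain of the interferon-gamma receptor, had log2 ratios of 1.35 and 0.76.

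Central and quiescence genes lay at the other end. Of 14 genes, 12 lay 1.5-fold or more below in CD25KO and 11 in CD25WT, 0 were higher, and the medians were -1.08 and -1.06. The list of genes held down by Blimp-1 overlaps it in genes such as Ccr7, Tcf7 and Id3, and had 6 of 7 genes lower in CD25KO (median -1.29) and 5 of 7 in CD25WT (-0.80). Prdm1 is a selecting gene, so the list's direction is not evidence apart from the selection. Among all genes, 2.42% were 1.5-fold lower in CD25KO and 7.7% in CD25WT. Tcf7, a transcription factor of resting and memory-like T cells, stood at 87.6 against 256 CPM in CD25KO (log2 -1.55, -1.75 to -1.36) but at 171 against 201 CPM in CD25WT (-0.23, -0.62 to 0.13). Id3 had -1.60 and -0.60, and Bach2, a repressor of effector differentiation, -1.91 and -0.98.

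Lists that describe the T cell receptor complex and oxidative phosphorylation lay near the background in CD25KO: 0 of 15 genes of either list were 1.5-fold higher or lower, with medians of -0.04 and 0.21. Interferon response genes had 2 of 17 higher and 1 lower (median 0.20), where 5.51% of all genes were higher and 2.42% lower. The T cell receptor activation list had 0 of 11 genes 1.5-fold higher and 1 lower in CD25KO (median 0.22). In CD25WT 1 of its 11 genes was higher and 7 lower (median -0.72), against 25.4% and 7.7% of all genes. The cell cycle list had 12 of 20 genes 1.5-fold higher in CD25KO (median 0.70), where Top2a stood at 184 against 98.6 CPM. In CD25WT 18 of 20 were higher, against 25.4% of all genes, with a median of 3.17. However, 3 cells held 75.1% of the list's UMIs there. Leaving out the 5% of cells with the most UMIs in each library took that median to 0.74. With each cell thinned to 2000 UMIs the median was -0.03, but it covered only 4 of the 20 genes. It is therefore not a median of the same genes.

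**Figure D4:**
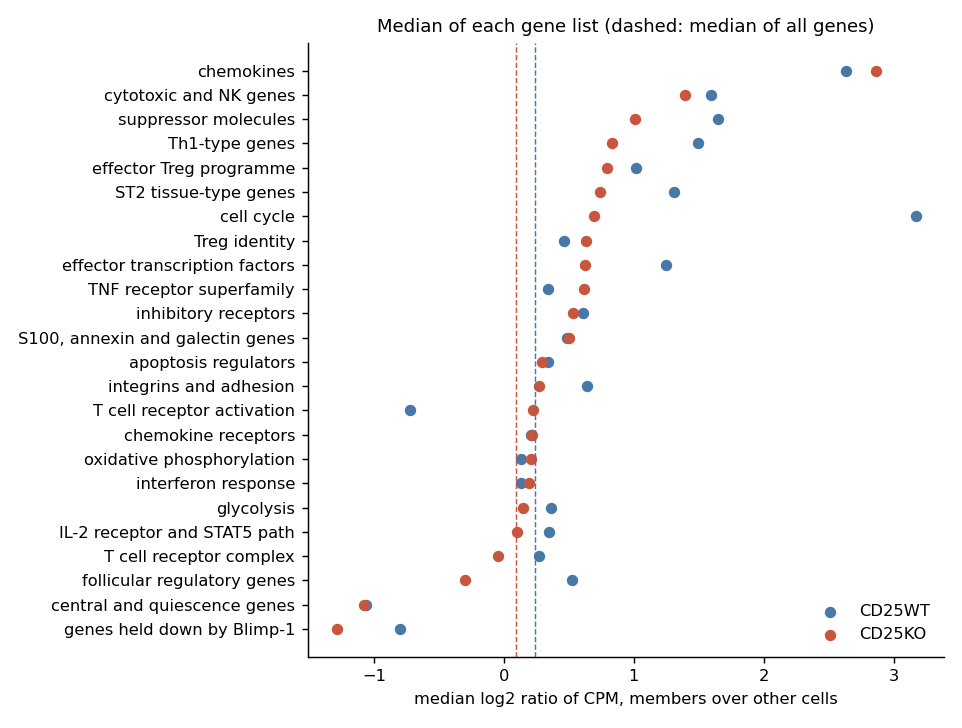
Median log2 ratio of summed CPM, marker-positive Tregs over the remaining cells, for each of 24 gene lists in CD25WT and CD25KO, with the median of all genes as dashed lines in the same colours. Central and quiescence genes and genes held down by Blimp-1 lie lowest in CD25KO (-1.08 and -1.29), and the cell cycle median of 3.17 in CD25WT comes with 75.1% of that list's UMIs in 3 cells.

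The IL-2 receptor path was read closely because Il2ra is the deleted gene. Among the remaining cells, Il2ra had 125 CPM in the CD25WT library and 31.3 CPM in the CD25KO library, so that CD25KO over CD25WT was log2 -2.0 (-2.10 to -1.91). Marker-positive Tregs had 54.2 and 46.1 CPM (log2 -0.23, -0.94 to 0.55). Marker-positive Tregs were therefore below the remaining cells in CD25WT (log2 -1.21, -1.94 to -0.56) and above them in CD25KO (0.56, 0.27 to 0.83). The CD25WT value is 19 UMIs in 6 of the 52 cells, 9 of them in 1 cell. The 3' UMIs do not tell an intact from a deleted Il2ra transcript, and the deleted exons are not given in the sources used here.

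Cish, a STAT5 target that feeds back on the receptor, was higher in marker-positive Tregs of both libraries: 99.6 against 33.9 CPM in CD25KO (log2 1.55, 1.35 to 1.75) and 123 against 50.8 CPM in CD25WT (1.27, 0.80 to 1.71). Socs2, another such target, stood at 43.0 against 18.1 CPM in CD25KO (1.25, 0.94 to 1.54) and 48.5 against 36.6 CPM in CD25WT (0.41, -0.38 to 1.09). The beta chain gene Il2rb, shared with the interleukin-15 receptor, had log2 ratios of 0.68 and 0.59, and the gamma chain gene Il2rg 0.37 and 0.14. Bcl2, the survival gene, was lower in marker-positive Tregs, at 116 against 175 CPM in CD25KO and 188 against 430 CPM in CD25WT. Over the 15 genes of the list, 4 were 1.5-fold higher and 2 lower in CD25KO (median 0.10) and 3 higher and 3 lower in CD25WT (0.35). Of all genes, 5.51% were higher and 2.42% lower in CD25KO, and 25.4% and 7.7% in CD25WT. The medians of the list lay near those of all genes. The CD25KO over CD25WT log2 ratio of Cish was -0.30 (-0.77 to 0.20) in marker-positive Tregs and -0.58 (-0.69 to -0.47) in the remaining cells, and that of Socs2 -0.17 (-0.92 to 0.66) and -1.02 (-1.16 to -0.87).

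**Figure D5:**
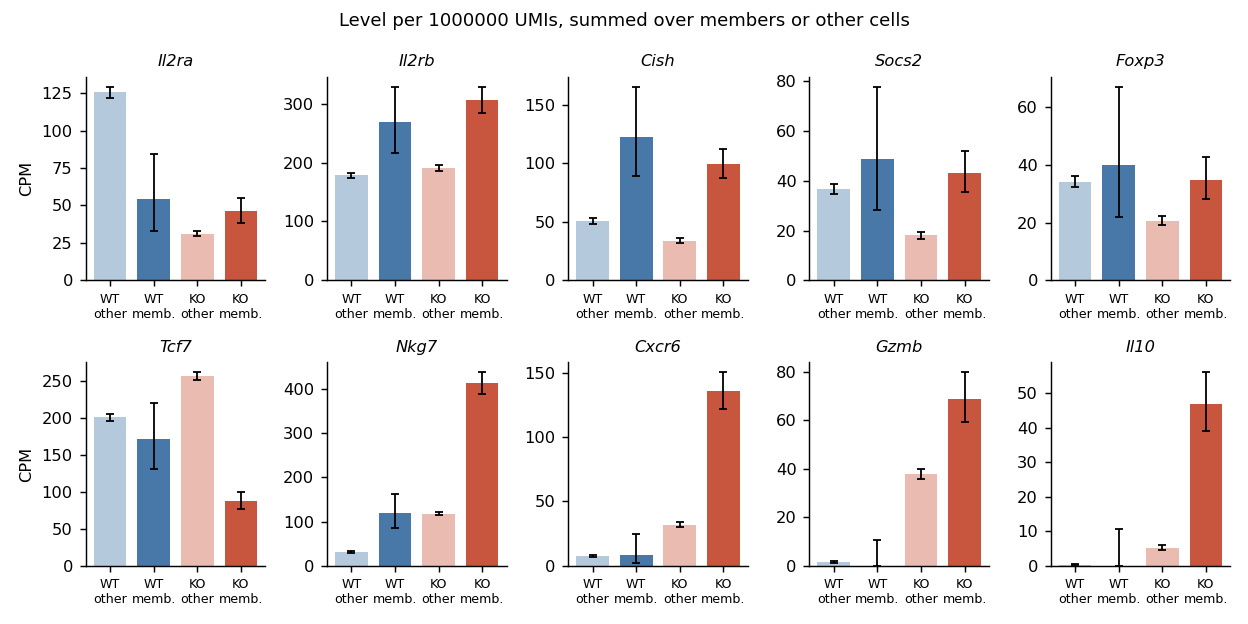
Summed level in CPM of 10 genes in the remaining cells (pale, WT other and KO other) and the marker-positive Tregs (full colour, WT memb. and KO memb.) of each library, with exact 95% intervals for counting error. Il2ra is highest in the remaining CD25WT cells (125 CPM) and lies at 54.2 and 46.1 CPM in the marker-positive Tregs, while Gzmb and Il10 have no UMI in those of CD25WT.

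Between the libraries, Cxcr6 and Csf1 were among the genes with the largest ratios of CD25KO over CD25WT marker-positive Tregs, and many of the ratios rest on few UMIs or few cells. Among 7436 genes that averaged 10 CPM or more, CD25KO was 2-fold or more above CD25WT for 446 (6.0%) and 2-fold or more below it for 338 (4.55%). In the remaining cells 307 of 7302 (4.2%) were higher and 38 (0.52%) lower. The CD25WT sum is the smaller by far, and its own counting error enters each of these ratios. In simulated data, 510 of 7236 genes with no planted difference passed 2-fold in the comparison of marker-positive Tregs. The 446 and 338 genes are thus sizes to be read beside that number, and whether they exceed it was not tested. The median of all genes was 0.04 in marker-positive Tregs and 0.21 in the remaining cells.

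Cxcr6 stood at 136 CPM in 132 CD25KO cells against 8.57 CPM in 2 CD25WT cells, a log2 ratio of 3.99 (2.43 to 6.27), and its ratio in the remaining cells was 2.11. Gzmb, the serine protease granzyme B, was found in 45 of 470 CD25KO cells at 69.0 CPM and in 0 of 52 CD25WT cells. With 3 counts set for the CD25WT sum it was 8.05-fold higher, and the lower limit of the 95% interval was log2 2.70. Il10, at 46.9 CPM in 41 CD25KO cells, was 5.47-fold higher on the same floor (lower limit log2 2.13). Cebpb, a leucine zipper transcription factor, was at 57.7 CPM in 114 CD25KO cells and at 0 in CD25WT. On that floor it was 6.74-fold higher (lower limit log2 2.44). In the remaining cells the log2 ratios of Gzmb, Il10 and Cebpb were 4.81, 3.90 and 3.69. With 3 UMIs each in CD25WT, Csf1, the macrophage growth factor, had a log2 ratio of 2.86 (1.28 to 5.15), Epcam 2.42 (0.83 to 4.71) and Gnaq 2.28 (0.69 to 4.58). The galectin gene Lgals3 had 2.57 (1.43 to 4.03) and Neb 2.12 (0.87 to 3.76). In the remaining cells these ratios were 1.45 for Csf1, 0.93 for Epcam, 1.46 for Gnaq, 2.48 for Lgals3 and 1.58 for Neb.

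Of the largest ratios, 3 came from few CD25KO cells. Ccl4, another chemokine, had 182 UMIs in 11 CD25KO cells, 76.9% of them in 3 cells, against 1 UMI in CD25WT (log2 4.63, 2.13 to 9.94). Ccl1 had 195 UMIs in 13 cells, 82.1% in 3 of them, against none (8.82-fold higher on the floor of 3 counts, lower limit log2 2.83). Gzma had 125 UMIs in 20 cells, 71.2% in 3 of them, against 2 UMIs (log2 3.08, 1.20 to 6.15). Among cells with a Foxp3 UMI alone, the Gzma ratio turned to log2 -1.09. That value rests on 9 CD25WT and 79 CD25KO marker-positive Tregs, and on at most 2 Gzma UMIs in CD25WT.

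Of the 12 genes named as lower in CD25KO marker-positive Tregs, 6 have roles in cell division, and their CD25WT UMIs lay in few cells. Cenpe, a mitotic motor protein, stood at 25.6 CPM in CD25KO and 126 CPM in CD25WT (log2 -2.30), where 5 cells carried it and 3 of them held 93.2% of the UMIs. Cenpf (-1.85), Cdc20 (-1.91), Aspm (-2.36), Cep55 (-2.13) and Arhgap11a (-1.78) were of this kind, with 57.1% to 88.0% of the CD25WT UMIs in 3 cells. The histone gene Hist1h2ap (-2.72) had 98.6% there, Hirip3 (-2.03) 76.0%, and Alas2 (-4.37) came from 1 CD25WT cell. Zfp932 (-2.41, 9 CD25WT cells), Gstp1 (-1.95, 15 cells), one of a family of similar genes, and the ubiquitin ligase gene Wwp1 (-1.76, 14 cells) were spread over more cells. Without the 5% of cells of highest UMI count, Cenpe, Cdc20 and Hirip3 turned to log2 0.21, 0.70 and 0.00.

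Of the genes that separated marker-positive from remaining cells, several had smaller ratios between the libraries in marker-positive Tregs than in the remaining cells. Ikzf2 stood at 2414 CPM in CD25KO and 2078 CPM in CD25WT (log2 0.22, 0.11 to 0.33), against 1555 and 727 CPM in the remaining cells (1.10). Cxcr3 had a log2 ratio of 0.20 (-0.23 to 0.67) in marker-positive Tregs and 1.63 in the remaining cells, and Penk 0.28 (-0.08 to 0.65). Central genes went lower in CD25KO: Tcf7 had -0.97 (-1.38 to -0.53) in marker-positive Tregs and 0.35 (0.30 to 0.40) in the remaining cells, and Id3 -0.95 (-1.46 to -0.40) and 0.05. Effector programme genes were 1.5-fold higher in CD25KO in 13 of 21 cases among marker-positive Tregs (median 0.84) and in 18 of 21 among the remaining cells (1.38), where 15.4% and 11.5% of all genes were, and 12.6% and 1.3% were 1.5-fold lower. Whether the ratios differ between marker-positive and remaining cells was not tested.

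Set beside the 3 populations that the selection removed, the CD25KO marker-positive Tregs shared effector genes with each and differed in others. The 415 cells with Ccr2 and no Il1rl1, the 348 with Il1rl1 and the 412 with Sostdc1 were compared by summed level, and these groups can share cells. Gzmb stood at 69.0 CPM in marker-positive Tregs, 250 CPM with Ccr2, 150 CPM with Il1rl1 and 1.66 CPM with Sostdc1. Nkg7 stood at 413, 491, 283 and 27.7 CPM. The marker-positive Tregs thus lay between the Ccr2 and Sostdc1 cells in Gzmb.

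Il10 was highest in the marker-positive Tregs, at 46.9 CPM against 13.3, 4.09 and 2.07 CPM, a log2 ratio of 1.82 (1.28 to 2.39) over the Ccr2 cells. Lag3 stood at 114 CPM against 39.5 and 24.1 CPM with Ccr2 and Il1rl1, and 146 CPM with Sostdc1, and Pdcd1 at 204 CPM against 58.2, 73.1 and 285 CPM. S100a4, a calcium-binding protein of motile cells, was lower than in Ccr2 cells, at 910 against 2701 CPM, as was Ifitm1, an interferon-induced membrane protein, at 6.20 against 208 CPM. Klf2, which drives the exit of T cells from lymphoid organs, stood at 244 against 730 CPM. Against the Sostdc1 cells, the follicular factor Bcl6 stood at 10.1 against 79.4 CPM and Tcf7 at 87.6 against 360 CPM. Itgae, which encodes the integrin CD103, stood at 32.2 CPM against 59.7, 67.7 and 4.96 CPM.

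The CD25KO marker-positive Tregs were themselves mixed. The 279 with Ccl5 and the 191 without it differed in Nkg7, Gzmb and the chemokine receptor gene Cxcr6: Nkg7 stood at 562 and 173 CPM (log2 1.70, 1.46 to 1.95), Gzmb at 93.7 and 29.3 CPM (1.68, 1.10 to 2.30) and Cxcr6 at 174 and 74.8 CPM (1.21, 0.84 to 1.60). Cells without Ccl5 had more Ctla4, an inhibitory receptor, at 367 against 165 CPM, more Areg at 119 against 38.3 CPM, and more Maf at 1359 against 864 CPM. The immediate early gene Nr4a1 and the factor Irf4 were also higher without Ccl5, at 48.5 against 14.5 CPM and 41.4 against 11.9 CPM. A cell without Ccl5 needed 2 of the other 5 markers, so this split changes the other selecting genes too, and Lilrb4a stood at 143 CPM with Ccl5 and 251 CPM without it. Tcf7 stood at 88.6 CPM with Ccl5 and 85.9 CPM without it (log2 0.04, -0.35 to 0.45).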

How the data were processed

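Each library has 1 deposited matrix of raw UMI counts, genes by barcodes, which the authors made without normalization using Cell Ranger 6.0.0, per the file headers. The genome build is mm10 per the submitters' processing notes, with an annotation not given in the sources used here. Within each library, UMIs of the selected cells and of all other filtered cells were added up separately, divided by their total over all genes (CPM, per 1000000) and compared as log2 ratios. With 1 library per group no test was made, and 95% intervals and the floor of 3 counts, used where a sum was 0, cover counting error only. Where that floor lay above the level it was compared with, no ratio was given, and list counts and medians leave the gene out. Deep cells meet the selection more easily, so shares are also given after thinning to 2000 UMIs.

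The members and gene lists were chosen with earlier results of these data known. Genes named are the 12 in each direction with the largest ratio (for marker-positive against remaining cells, the smaller of the 2 libraries' ratios) at a mean of at least 20 CPM, leaving out selecting genes, Il2ra, receptor segments, ribosomal, mitochondrial, haemoglobin, Xist, Y-linked and unnamed genes. Up to 4 genes of each list are named besides, and genes outside this rule were chosen after their values were seen. Some genes that the rule takes are not reported here. List counts use at least 10 CPM and 1.5-fold. No doublet caller was run, and doublets may remain. Instead the 5% of cells with the most UMIs were left out as an alternative. Other alternatives changed the selection, cell and gene filters, weighting, depth and scaling, including TMM factors (edgeR 4.0.16). The ratio step was tested on simulated data. Promoters are from RefSeq and positions from GENCODE, both on the same build. Python 3.11.15, NumPy 2.4.6, SciPy 1.17.1 and pandas 2.3.3 were used.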

Additional observations from a re-analysis of the deposited data

Results flagged for a closer look

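For 3 named genes the counting intervals of the ratio of marker-positive over remaining cells lay wholly on one side of 0 in CD25KO and wholly on the other in CD25WT, and for 1 list both medians were at least 1.5-fold and opposite in sign. Other genes and lists with opposite signs did not reach these limits. None of these differences was tested, since each group was 1 library. Il2ra was at log2 0.56 in CD25KO and -1.21 in CD25WT, and the CD25WT value comes from 19 UMIs in 6 cells. Zfp932 was at log2 -0.78 in CD25KO and 1.85 in CD25WT, from 18 and 13 UMIs. Alas2, an enzyme of haem synthesis in red cell precursors, was at log2 -1.41 in CD25KO and 2.56 in CD25WT, where all 14 UMIs lay in 1 cell. The erythroid list had a median of -2.32 in CD25KO and 1.83 in CD25WT, and 1 CD25WT cell held 99.2% of its UMIs there. Leaving out cells with over 100 erythroid UMIs, an alternative chosen after seeing the data, gave a median of -0.31 in CD25WT.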

How the results depend on the processing

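No paired analysis was possible because each group was 1 library and the labels give no replicate numbers. The CD25KO share of marker-positive Tregs was above the CD25WT share under every alternative run. The CD25WT and CD25KO shares were 0.369% and 4.38% with thinning, 0.149% and 2.55% with 3 markers, and 0.432% and 5.21% without cells holding 2 or more UMIs of any other-lineage list. This last setting left 2780 CD25WT and 2745 CD25KO cells, 12 and 143 of them marker-positive. It does not single out cells of other lineages, since Ighm had a UMI in 53.4% and 60.4% of the remaining cells. The CD25KO share was 10.2% with Ccr2, Il1rl1 and Sostdc1 cells kept in, 9.07% with at least 1000 genes and at most 5% mitochondrial UMIs, and 11.5% among Foxp3-positive cells. The CD25WT share was 1.17% among cells without Il2ra UMIs. The other shares stayed within the interval of the reported share.

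The number of genes 2-fold higher in both libraries, 69, became 154 with thinning and 114 among Foxp3-positive cells. It became 197 without cells holding 2 or more UMIs of an other-lineage list (12 CD25WT cells), 42 with TMM factors, 38 at 20 CPM and 301 with no minimum. The number lower in both, 25, became 10 with thinning, 54 with a total free of ribosomal and mitochondrial genes, 45 with TMM, 40 with median-of-ratios factors, 13 at 20 CPM and 42 with no minimum. The 446 genes higher in CD25KO than in CD25WT marker-positive Tregs became 818 with 3 markers, 210 at 20 CPM and 859 with no minimum. The 338 lower became 1730 with thinning (22 CD25WT cells), 1108 with 3 markers (9 cells) and 1703 among Foxp3-positive cells (9 cells). They became 1370 without cells holding 2 or more UMIs of an other-lineage list (12 cells). They became 548 without ribosomal and mitochondrial genes, 145 at 20 CPM and 1156 with no minimum.

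Of the alternative values of named genes, 919 stayed within the interval of the reported value, 162 moved beyond it and 10 changed the sign of a ratio of at least 1.5-fold. Of list medians, 1176 moved by less than 0.25, 302 by more and 20 changed sign in that sense. Thinning turned the CD25WT medians of T cell receptor activation to 0.25 (10 genes), cell cycle to -0.0315 (4 genes) and the erythroid list to -3.17 (3 genes). It turned the CD25KO over CD25WT medians of these lists to -0.0100, 0.59 and 1.66, over the same numbers of genes. That of effector transcription factors turned to -0.0101 (13 genes). Medians under an alternative can cover fewer genes than the reported ones. With 3 markers, Hist1h2ap turned to 2.39 and the cell cycle median to 0.60 between libraries, and the CD25WT erythroid median to -5.06. That median was -0.55 under the looser cell filter. Without the cells of most UMIs, Cenpe, Hirip3, Cdc20 and the cell cycle median turned to 0.21, 0.00334, 0.70 and 0.56 between libraries, and the CD25KO erythroid median to 0.22. Among Foxp3-positive cells, Gzma, Hist1h2ap, Hirip3 and the cytotoxic, tumour necrosis factor receptor and cell cycle medians turned to -1.09, 2.59, 0.17, -0.59, -0.33 and 1.11 between libraries. The cell cycle median turned to -0.0588 in CD25WT, and the erythroid medians to 0.0608 in CD25KO and -5.31 in CD25WT. Foxp3 turned to -0.19 in CD25KO, but every cell kept there had a Foxp3 UMI by that choice, so this value is not a result. Without cells holding 2 or more UMIs of an other-lineage list, Hist1h2ap turned to 0.40 and the CD25KO erythroid median to 0.13. With CD25WT cells free of Il2ra UMIs Cenpe turned to 0.22. Without cells of over 100 erythroid UMIs, chosen after seeing the data like the alternatives without Cd8a or Cd8b1 cells and without shared barcodes, the CD25WT erythroid median turned to -0.31. The cause of these changes was not tested. The depth of 52 CD25WT cells limits every comparison between the libraries.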
